A study of Mus musculus with 54 samples.

Results

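The genes described here are 7 genes that mark γδ T cells: Trdc, which encodes the constant region of the TCR δ chain, Tcrg-C1, Tcrg-C2 and Tcrg-C4, which encode constant regions of the TCR γ chain, Cd163l1 and 5830411N06Rik, which encode the scavenger receptors SCART1 and SCART2, and Sox13, which encodes a transcription factor of the γδ lineage. They are 7 of the 55385 genes counted in each of 2 sets of mouse CD4+ T cell libraries, and all 7 had reads in both sets. They were chosen from earlier readouts of these same data, since several had higher levels in libraries from mice lacking CD5 than in wild-type (WT) libraries. The differences of Cd5-/- and Cd5-/-Cd6-/- cells from WT cells are therefore given as values with no test.

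The study asked what CD5 and CD6, a pair of related receptors that modulate TCR signalling, and LAT, the adaptor that links the TCR to its signalling enzymes, contribute to the transcriptional response of CD4+ T cells. The first set of 36 libraries came from naive CD4+ T cells enriched magnetically, by removing other cells, from lymph nodes and spleen of C57BL/6 mice aged 8 to 10 wk. The mice were WT, Cd5-/- (a germline knockout backcrossed to C57BL/6), Cd6-/- (a CRISPR deletion that removes the start codon) or Cd5-/-Cd6-/- (a single deletion that spans both neighbouring genes). The second set of 18 libraries came from naive CD4+ T cells sorted by flow cytometry from lymph nodes and spleen. These mice were also on the C57BL/6 background and aged 8 to 10 wk. They carried the conditional allele Lat fl-dtr, with a human diphtheria toxin receptor (hDTR) reporter, and maT-Cre, a Cre transgene active in mature T cells. Sorted WT cells were hDTR+ and still carried LAT, whereas sorted Lat-/- cells were hDTR- and had deleted it, so both came from mice with the same alleles. Cells of each genotype were taken before culture (0 h) or after 4 or 20 h with plate-bound anti-CD3 at 3 µg/ml and soluble anti-CD28 at 1 µg/ml, with 3 libraries for each genotype and time. The study describes the samples of a condition as prepared independently, but no source used here says whether they came from separate animals, so the p-values measure the spread between these libraries, which may be technical.

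A γδ T cell carries a receptor made of a γ and a δ chain, and a CD4+ αβ T cell one made of an α and a β chain. The δ gene segments lie inside the α locus, so that rearrangement of the α chain deletes Trdc from that chromosome. The γ locus is retained in αβ T cells, where it may be rearranged but is kept largely silent. The 4 mouse γ constant genes arose by duplication, and each is served by its own group of variable segments: Tcrg-C1 serves segments used by IL-17-producing γδ T cells and by skin and uterine γδ T cells, and Tcrg-C4 serves Tcrg-V1. SCART1 and SCART2 are surface receptors found on subsets of γδ T cells, many of them IL-17 producers, and Sox13 is needed for γδ T cells of that type to develop.

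The 4 receptor genes are given here by the first 200 bases of their first constant exon, because the close match between Tcrg-C1 and Tcrg-C2 limits how 50-base reads can be shared out between them. The sequences come from the GRCm38 genome with GENCODE vM21 gene models, run 5′ to 3′ on the gene's own strand, and carry capitals where Tcrg-C2 or Tcrg-C4 differs from Tcrg-C1. Trdc lies on the plus strand at chr14:54142851-54143050, Tcrg-C1 on the plus strand at chr13:19214103-19214302, Tcrg-C2 on the minus strand at chr13:19307352-19307551 and Tcrg-C4 on the plus strand at chr13:19344558-19344757.
Trdc: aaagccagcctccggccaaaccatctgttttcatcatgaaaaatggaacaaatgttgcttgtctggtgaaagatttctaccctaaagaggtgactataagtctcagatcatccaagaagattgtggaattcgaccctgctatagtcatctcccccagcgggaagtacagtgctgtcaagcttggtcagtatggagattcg
Tcrg-C1: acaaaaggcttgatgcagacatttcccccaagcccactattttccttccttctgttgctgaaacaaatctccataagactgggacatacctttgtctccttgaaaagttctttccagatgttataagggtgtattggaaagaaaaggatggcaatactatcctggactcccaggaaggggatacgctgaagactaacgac
Tcrg-C2: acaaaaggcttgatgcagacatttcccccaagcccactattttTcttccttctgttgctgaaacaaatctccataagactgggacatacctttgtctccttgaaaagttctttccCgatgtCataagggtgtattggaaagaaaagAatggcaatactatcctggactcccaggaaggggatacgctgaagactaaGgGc
Tcrg-C4: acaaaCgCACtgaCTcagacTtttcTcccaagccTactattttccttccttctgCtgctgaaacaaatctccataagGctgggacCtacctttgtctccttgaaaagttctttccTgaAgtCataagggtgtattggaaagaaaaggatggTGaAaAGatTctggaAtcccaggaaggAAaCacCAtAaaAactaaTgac
In this stretch Tcrg-C2 differed from Tcrg-C1 at 6 bases and Tcrg-C4 at 30 bases.

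Over the whole first exon of 330 bases, Tcrg-C1 and Tcrg-C2 were identical at 321 positions (97.3%), Tcrg-C1 and Tcrg-C4 at 271 (82.1%), and Tcrg-C2 and Tcrg-C4 at 269 (81.5%). Of the 50-base windows in the Tcrg-C1 transcript, 34.2% were found unchanged in another gene's transcript, as were 25.4% of those in Tcrg-C2. The counting setting for reads that map to several places is not given in the sources used here, so the split between Tcrg-C1 and Tcrg-C2 is uncertain. None of the windows of Tcrg-C4, Cd163l1, 5830411N06Rik or Sox13 was shared on either strand. Of those of Trdc, 5.92% were shared when both strands were searched and 1.61% on the same strand. Trdc (ENSMUSG00000104876.1) spans chromosome 14 from 54142851 to 54148868, and its last 207 bases overlap the antisense segment Trdv5, whose reads cannot be told apart from those of Trdc unless the counting used strand, which is not stated. On chromosome 13, Tcrg-C1 (ENSMUSG00000076749.2) spans 19214103 to 19217024, Tcrg-C2 (ENSMUSG00000076752.2) 19304649 to 19307551, and Tcrg-C4 (ENSMUSG00000076757.9) 19344558 to 19352756. Cd163l1 (ENSMUSG00000025461.11) and 5830411N06Rik (ENSMUSG00000054672.13) are neighbours on the plus strand of chromosome 7, at 140218267 to 140231145 and 140247284 to 140300736. Sox13 (ENSMUSG00000070643.11) lies on the minus strand of chromosome 1 at 133382303 to 133424377.

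Libraries of enriched cells held 20554354 to 45222554 gene counts and those of sorted cells 17784644 to 28501095, so that 3 reads, the limit that a count of 0 allows, were worth 0.0663 to 0.146 and 0.105 to 0.169 CPM, the counts of a gene scaled to a fixed library total. These limits cover counting error only. Levels are CPM after TMM scaling, and levels of different genes are compared only as RPKM, which also divides by transcript length. Cd5 and Cd6 were at or under 0.66 CPM in every Cd5-/-Cd6-/- library, and Lat was at 5.69 to 19.1 CPM in Lat-/- libraries and 92.2 to 351 CPM in sorted WT libraries. At 0 h Lat was at 292, 214 and 241 CPM in sorted WT libraries, whose mice carried Lat fl-dtr. It was at 671, 649 and 792 CPM in enriched WT libraries at 0 h. At 0 h, library 2 labelled Cd5-/- and library 2 labelled Cd6-/- went against their labels. Cd5 was at 719 CPM in library 2 labelled Cd5-/- and at 129 and 105 CPM in the other two libraries of that label, and at 172 CPM in library 2 labelled Cd6-/- and 724 and 719 CPM in the other two of that label. Cd6 was at 1203 CPM in library 2 labelled Cd6-/- and at 349 and 251 CPM in the other two of its label, and at 329 CPM in library 2 labelled Cd5-/- and 1298 and 1084 CPM in the other two of its label. Each of the 2 libraries thus had Cd5 and Cd6 near the levels of the other label. They were kept as labelled, and the 0 h values of these groups are given with and without them, except in figures, which show every library.

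The enriched cells held RNA of other cell types. The summed level of 7 B cell markers was 114 to 622 CPM in enriched WT cells at 0 h, 70.9 to 224 CPM at 4 h and 1.89 to 3.35 CPM at 20 h, but 3.14 to 4.83 CPM in sorted WT cells at 0 h, where Pax5 was at 0 in every library. The summed level of 7 myeloid markers was 203 to 445 CPM in enriched WT cells at 0 h and 69.9 to 96.1 CPM at 4 h, and that of 4 NK cell markers 10.1 to 26.3 and 3.43 to 8.96 CPM. All 8 αβ TCR and CD3 genes had reads, and Trac, the α constant gene that defines αβ T cells, was at 1305 ± 171 RPKM in enriched WT cells at 0 h (SD, n = 3). A low level of a gene in such bulk libraries can reflect few cells or little RNA per cell, which cannot be told apart.

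In resting WT cells the γδ receptor genes were detected in every library of both sets, at a small fraction of the level of Trac. In enriched WT cells at 0 h, the per-length level was 6.33 ± 0.401 RPKM for Trdc, 5.06 ± 0.450 RPKM for Tcrg-C2, 4.68 ± 0.0888 RPKM for Tcrg-C4 and 2.70 ± 0.291 RPKM for Tcrg-C1 (SD, n = 3). The scavenger receptors and the transcription factor were lower, with 0.288 ± 0.101 RPKM for 5830411N06Rik, 0.146 ± 0.0261 RPKM for Cd163l1 and 0.0864 ± 0.0293 RPKM for Sox13. Trdc therefore stood at 0.488% ± 0.0765 of the Trac level per length in enriched WT cells, and at 0.420% ± 0.0266 in sorted WT cells.

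**Figure D1:**
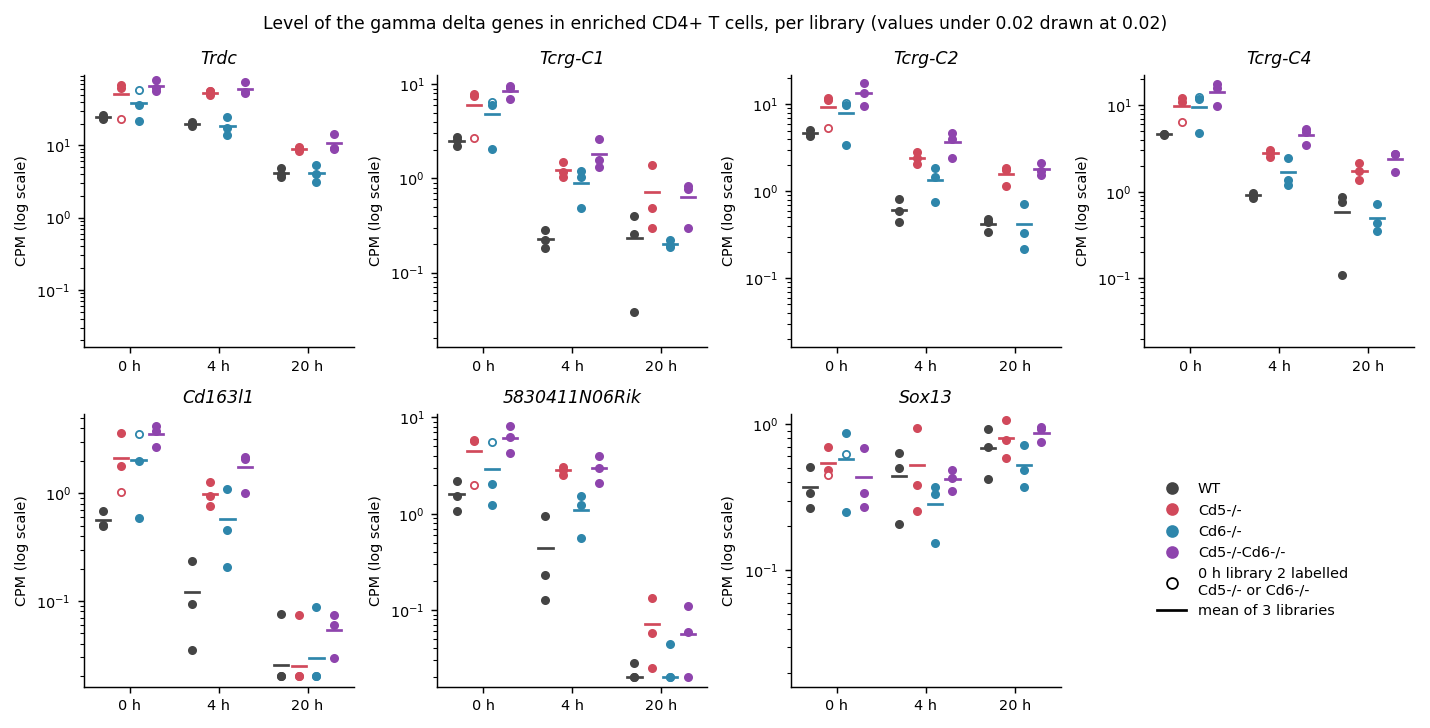
Level of each of the 7 genes (CPM, log axis) in the 36 libraries of enriched cells, by genotype and time after anti-CD3 and anti-CD28. Each point is a library, lines are means of 3 libraries, values under 0.02 CPM are drawn at 0.02, and open circles mark the 0 h libraries 2 labelled Cd5-/- and Cd6-/-. Trdc stays at 18.7 to 26.2 CPM in WT cells at 0 and 4 h, while the γ constant genes are lower at 4 h than at 0 h in every genotype.

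The γδ receptor genes were also present after sorting. Sorted WT cells at 0 h had Trdc levels of 24.0, 29.4 and 21.6 CPM, against 26.2, 23.8 and 23.4 CPM in enriched WT cells. Tcrg-C4 was at 5.45, 6.49 and 4.41 CPM in sorted and 4.66, 4.67 and 4.51 CPM in enriched WT cells. The ranges of the sorted and the enriched libraries overlapped for both genes. The tables were made separately, so these levels are set side by side with no test. Lat itself was lower in the sorted than in the enriched WT libraries. Over the 7 genes and 3 times, the ranges of the sorted and enriched WT libraries overlapped in 20 of 21 cases, and the exception was 5830411N06Rik at 0 h, with 0.980, 0.661 and 0.630 CPM in sorted and 1.06, 1.54 and 2.18 CPM in enriched cells. As a percentage of Trac per length, the ranges overlapped in 18 of 21 cases. The exceptions were Tcrg-C2 and 5830411N06Rik at 0 h and Trdc at 4 h, each lower in sorted cells: Tcrg-C2 stood at 0.386% ± 0.0219 of Trac in enriched and 0.287% ± 0.0694 in sorted cells, and Trdc at 4 h at 0.218% ± 0.0219 and 0.162% ± 0.0241. The B cell markers summed to 114 to 622 CPM in the enriched and 3.14 to 4.83 CPM in the sorted WT libraries at 0 h, the NK cell markers to 10.1 to 26.3 and 0.735 to 6.70 CPM, and the myeloid markers to 203 to 445 and 63.4 to 123 CPM. The part of these cells in the levels of the γδ genes was not tested.

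In stimulated WT cells the γ constant genes were called lower by 4 h and Trdc at 20 h. Neither the sample titles nor the study says whether the unstimulated cells were cultured, so stimulation and culture cannot be told apart. A gene was called where it changed over 2-fold with an adjusted p under 0.05 in the quasi-likelihood test of edgeR, adjusted by Benjamini-Hochberg over all genes with reads. In enriched WT cells, 5 of the 7 genes were called lower at 4 h than at 0 h, where 11.1% of all genes were called lower and 8.24% higher. At 20 h against 0 h, 6 of the 7 were called lower, with 17.3% of all genes lower and 12.3% higher. The median log2 change of the 7 genes was -2.11 at 4 h and -3.35 at 20 h, and that of all genes tested was 0 in both.

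Trdc levels in enriched WT cells were 26.2, 23.8 and 23.4 CPM at 0 h, 20.8, 19.5 and 18.7 CPM at 4 h, and 4.85, 3.69 and 4.00 CPM at 20 h. The 4 h libraries lay just below those at 0 h, and the 20 h libraries lay far below both. The log2 change was -0.31 ± 0.23 at 4 h (SE, adjusted p = 0.391) and -2.54 ± 0.25 at 20 h (adjusted p = 2.88e-14). This timing depends on the scale. As a percentage of Trac per length, mean Trdc was 0.488, 0.218 and 0.168% in enriched WT cells at 0, 4 and 20 h. In sorted WT cells it was 0.420, 0.162 and 0.171%. On that scale most of the fall lay before 4 h, but Trac itself changed. In enriched WT cells Trac was at 1168, 1109 and 1411 CPM at 0 h and 2356, 1962 and 2293 CPM at 4 h. At 20 h Trac was at 601, 591 and 608 CPM, so the percentage carries the changes of both genes. Trdc gave 99 to 2976 reads per library over the 54 libraries, the deepest coverage of the 7 genes.

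The γ constant genes were low already at 4 h; whether their change differs from that of Trdc was not tested. Tcrg-C1 levels were 2.73, 2.20 and 2.55 CPM at 0 h, 0.220, 0.181 and 0.284 CPM at 4 h, and 0.395, 0.258 and 0.0381 CPM at 20 h, so the 4 h and 20 h libraries overlapped and both lay below all those at 0 h. The log2 change from 0 h was -3.44 ± 0.48 at 4 h (adjusted p = 7.17e-09) and -3.35 ± 0.48 at 20 h (adjusted p = 1.02e-08). Tcrg-C2 levels were 4.32, 4.46 and 5.09 CPM at 0 h, 0.441, 0.596 and 0.816 CPM at 4 h, and 0.479, 0.442 and 0.343 CPM at 20 h. Most of the decrease of Tcrg-C2 had again taken place by 4 h, with log2 changes of -2.91 ± 0.37 at 4 h (adjusted p = 2.41e-10) and -3.43 ± 0.39 at 20 h (adjusted p = 2.9e-12). Tcrg-C4 levels were 4.66, 4.67 and 4.51 CPM at 0 h, 0.976, 0.906 and 0.851 CPM at 4 h, and 0.874, 0.111 and 0.761 CPM at 20 h. No library of Tcrg-C4 after stimulation reached the lowest 0 h library, and its log2 change was -2.33 ± 0.35 at 4 h (adjusted p = 3.55e-08) and -2.95 ± 0.37 at 20 h (adjusted p = 9.96e-11). Summed over the 3 γ constant genes, the level in enriched WT cells was 11.7 ± 0.413 CPM at 0 h, 1.76 ± 0.170 CPM at 4 h and 1.23 ± 0.475 CPM at 20 h (SD, n = 3).

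The 2 scavenger receptors fell to the detection limit. Cd163l1 was at 0.499, 0.512 and 0.679 CPM in enriched WT cells at 0 h and 0.0945, 0.233 and 0.0355 CPM at 4 h, a log2 change of -2.11 ± 0.65 (adjusted p = 0.00731). At 20 h it had 2 reads over the 3 libraries against 60 reads at 0 h, 25.5-fold fewer after scaling (exact 95% interval 6.76 to 215, counting error only). 5830411N06Rik, its neighbour on chromosome 7, was at 1.06, 1.54 and 2.18 CPM at 0 h and 0.126, 0.233 and 0.958 CPM at 4 h, with a log2 change of -1.91 ± 0.49 (adjusted p = 0.00113). It had 1 read at 20 h against 173 at 0 h, 147-fold fewer (26.1 to 5844). Both genes were called lower at 20 h, with adjusted p = 1.61e-05 for Cd163l1 and 9.81e-11 for 5830411N06Rik.

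Sox13 was not called in any comparison of times in enriched cells. Its WT levels were 0.266, 0.512 and 0.339 CPM at 0 h, 0.630, 0.207 and 0.497 CPM at 4 h, and 0.930, 0.700 and 0.419 CPM at 20 h. The 3 times overlapped, and its log2 change was 0.23 ± 0.54 at 4 h (adjusted p = 0.918) and 0.88 ± 0.53 at 20 h (adjusted p = 0.21). Sox13 gave at most 43 reads in a library.

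**Figure D2:**
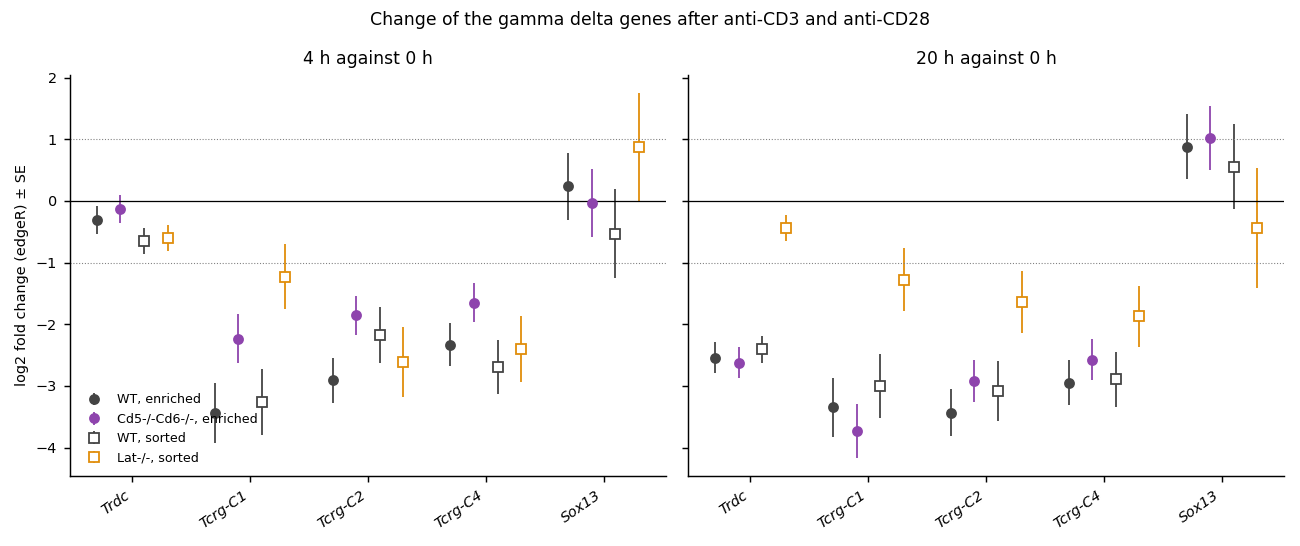
Log2 change (± SE from the edgeR fit) from 0 h to 4 h and from 0 h to 20 h for 5 of the genes, in enriched WT and Cd5-/-Cd6-/- cells (filled circles) and sorted WT and Lat-/- cells (open squares); dotted lines mark 2-fold. Trdc lies near 0 at 4 h in both kinds of enriched cells and at -2.54 and -2.62 at 20 h, whereas the γ constant genes lie below -1.5 at both times in those cells.

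In enriched Cd5-/-Cd6-/- cells the γ constant genes were again called lower at 4 h and Trdc at 20 h. Whether the response differs from that of WT cells was not tested, since that difference rests on the contrast that chose the genes. At 4 h, 3 of the 7 genes were called lower, where 9.66% of all genes were, and at 20 h 6 of the 7 were, where 18% of all genes were. Trdc levels were 56.6, 81.2 and 62.2 CPM at 0 h, 54.6, 74.6 and 52.7 CPM at 4 h, and 9.04, 14.3 and 9.09 CPM at 20 h. The 0 h and 4 h libraries overlapped and the 20 h libraries lay below both, with log2 changes of -0.14 ± 0.23 (adjusted p = 0.814) and -2.62 ± 0.25 (adjusted p = 2.42e-15). The log2 change at 4 h was -2.23 ± 0.40 for Tcrg-C1 (adjusted p = 3.12e-06), -1.86 ± 0.32 for Tcrg-C2 (adjusted p = 1.73e-06) and -1.65 ± 0.32 for Tcrg-C4 (adjusted p = 1.24e-05). For the scavenger receptors the log2 change at 4 h was -1.01 ± 0.49 for Cd163l1 (adjusted p = 0.139) and -1.03 ± 0.42 for 5830411N06Rik (adjusted p = 0.0607). In this comparison libraries of the same number deviated together, and with the replicate number as a block both were called, with adjusted p = 0.0414 and 0.0176, which makes 5 of the 7 genes. Without the doubtful 0 h libraries in the fit 5830411N06Rik was called as well (adjusted p = 0.0154). At 20 h the log2 change was -5.96 ± 0.71 for Cd163l1 and -6.75 ± 0.65 for 5830411N06Rik (adjusted p = 2.44e-11 and 4.54e-15).

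For Cd5-/- and Cd6-/- cells, whose 0 h groups each hold a library that went against its label, the change was tested from 4 h to 20 h. In Cd5-/- cells 3 of the 7 genes were called lower (12.5% of all genes), and in Cd6-/- cells 6 of the 7 were (12.5% of all genes). Trdc in Cd5-/- cells was at 56.0, 49.6 and 55.9 CPM at 4 h and 8.49, 9.37 and 9.12 CPM at 20 h, a log2 change of -2.58 ± 0.25 (adjusted p = 1.19e-14). In Cd6-/- cells Trdc was at 13.8, 17.6 and 24.6 CPM at 4 h and 3.15, 4.00 and 5.30 CPM at 20 h, a log2 change of -2.18 ± 0.25 (adjusted p = 2.12e-11). Neither pair of groups overlapped. The γ constant genes were not called in Cd5-/- cells between these times, with log2 changes of -0.85 ± 0.44 for Tcrg-C1 (adjusted p = 0.151), -0.62 ± 0.34 for Tcrg-C2 (adjusted p = 0.186) and -0.68 ± 0.33 for Tcrg-C4 (adjusted p = 0.122). Tcrg-C1 was called in Cd5-/- cells without replicate 1 (log2 change -1.70, adjusted p = 0.00199). In Cd6-/- cells all 3 fell, with log2 changes of -2.14 ± 0.52, -1.74 ± 0.40 and -1.70 ± 0.38 (adjusted p = 0.000611, 0.0003 and 0.000182), and whether the 2 genotypes differ in this was not tested. Cd163l1 had 3 reads at 20 h against 87 at 4 h in Cd5-/- cells and 2 against 55 in Cd6-/- cells, 31.3-fold (exact 95% interval 10.4 to 155) and 23.2-fold (6.11 to 196) fewer.

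The markers of other cell types moved with time as well. In enriched WT cells, 7 of the 7 B cell markers, 6 of the 7 myeloid markers and 4 of the 4 NK cell markers were called lower at 20 h than at 0 h. At 4 h, 4 of the 7 B cell markers and 6 of the 7 myeloid markers were. The share of all genes called lower was 17.3% at 20 h and 11.1% at 4 h. Their part in the changes of the γδ genes was not tested.

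In sorted WT cells, 4 of the 7 genes were called lower at 4 h (9.29% of all genes) and 6 of the 7 at 20 h (12.7% of all genes). Trdc levels were 24.0, 29.4 and 21.6 CPM at 0 h, 19.6, 14.7 and 13.5 CPM at 4 h, and 4.24, 4.94 and 4.95 CPM at 20 h. The 3 times did not overlap. The log2 change was -0.65 ± 0.20 at 4 h (adjusted p = 0.00598, under 2-fold) and -2.41 ± 0.22 at 20 h (adjusted p = 7.12e-27). The log2 changes at 4 and 20 h were -3.25 ± 0.53 (adjusted p = 1.01e-08) and -3.00 ± 0.52 (adjusted p = 5.55e-08) for Tcrg-C1, -2.17 ± 0.46 (adjusted p = 1.23e-05) and -3.09 ± 0.48 (adjusted p = 1.38e-09) for Tcrg-C2, and -2.69 ± 0.44 (adjusted p = 9.27e-09) and -2.89 ± 0.44 for Tcrg-C4 (adjusted p = 6.2e-10). The γ constant genes were thus called lower at 4 h, and Trdc at 20 h, in sorted cells too. Cd163l1 had 43 reads over the 3 libraries at 0 h and none at 20 h, at least 13.4-fold fewer against 3 reads over the group. Its call at 4 h (log2 change -2.64 ± 1.05, adjusted p = 0.0415) was lost with DESeq2 (adjusted p = 0.168) and on leaving out any 1 replicate (adjusted p = 0.0838 to 0.268). 5830411N06Rik had 59 reads at 0 h and 3 at 20 h, 18.4-fold fewer (exact 95% interval 5.99 to 91.7). Sox13 was at 0.431, 0.455 and 0.525 CPM at 0 h and 0.556, 0.774 and 0.751 CPM at 20 h, a log2 change of 0.55 ± 0.69 (adjusted p = 0.591).

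**Figure D3:**
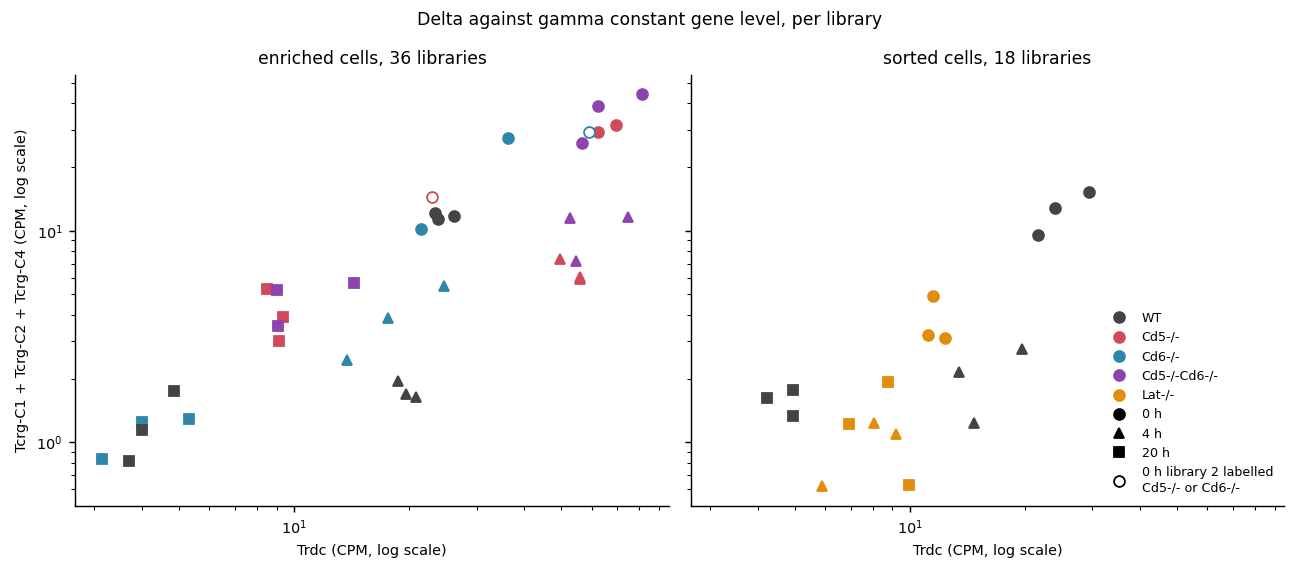
Trdc level against the summed level of Tcrg-C1, Tcrg-C2 and Tcrg-C4 (CPM, both axes log), with a point for each library of enriched and sorted cells. The WT libraries at 4 h sit to the low side of the γ axis, with a summed γ level of 1.76 ± 0.170 CPM against 11.7 ± 0.413 CPM at 0 h in enriched cells, while their Trdc level is 18.7 to 20.8 CPM.

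The other segments of the γ and δ loci gave both time courses. Among them are variable segments, such as Trav21-dv12, that can join to α or δ and that αβ T cells can also express. Of 32 variable, joining and further constant segments listed for these loci, 30 had reads in enriched cells. Of these 30, none was called higher and 7 lower at 4 h (11.1% of all genes lower), and none higher and 16 lower at 20 h (17.3%). The median log2 change of those with reads was -0.28 at 4 h and -2.30 at 20 h, against 0 for all genes. In sorted WT cells 28 had reads, of which none was called higher and 14 lower at 20 h (12.7% of all genes lower). The γ variable segments were already lower at 4 h, with log2 changes of -2.52 for Tcrg-V1, -2.62 for Tcrg-V4 and -1.93 for Trgv2. The δ segments Trdj1 and Trdv1 were not called at 4 h (log2 change -0.21 and 0.03) and were at 20 h (-2.08 and -1.83). Trac, which marks the αβ T cells that make up most of the sample, had a log2 change of 0.84 at 4 h and -1.03 at 20 h.

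Genes of γδ effector programmes moved in both directions. Of 16 genes of the IL-17-type γδ lineage, 3 were called higher and 5 lower in enriched WT cells at 4 h, and 1 higher and 9 lower at 20 h. Of all genes, 8.24% were called higher and 11.1% lower at 4 h, and 12.3% higher and 17.3% lower at 20 h. The cytokine genes Il17a and Il17f rose by 4.08 and 4.45 at 4 h on the log2 scale. Blk, a kinase gene expressed in B cells and in IL-17-type γδ T cells, had log2 changes of -1.35 at 4 h and -7.66 at 20 h. Of 15 genes of the IFN-γ-producing and cytotoxic type, 5 were called higher and 6 lower at 4 h and 5 higher and 7 lower at 20 h. CD4+ αβ T cells and NK cells express many genes of both lists.

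The levels that led to the choice of these genes were as follows. In resting Cd5-/-Cd6-/- cells Trdc was at 56.6, 81.2 and 62.2 CPM against 26.2, 23.8 and 23.4 CPM in WT cells. Tcrg-C1 was at 6.90, 9.12 and 9.62 CPM against 2.73, 2.20 and 2.55 CPM. Tcrg-C2 was at 9.47, 17.7 and 13.6 CPM against 4.32, 4.46 and 5.09 CPM, and Tcrg-C4 at 9.69, 17.5 and 15.8 CPM against 4.66, 4.67 and 4.51 CPM. Each of the 4 receptor genes thus lay above every WT library in all 3 Cd5-/-Cd6-/- libraries, with log2 differences of 1.45, 1.78, 1.55 and 1.64 in that order. Cd163l1 was at 2.72, 3.75 and 4.18 CPM against 0.499, 0.512 and 0.679 CPM, and 5830411N06Rik at 4.26, 8.08 and 6.21 CPM against 1.06, 1.54 and 2.18 CPM, log2 differences of 2.64 and 1.94. Sox13 was at 0.339, 0.690 and 0.269 CPM against 0.266, 0.512 and 0.339 CPM, and overlapped. In total 6 of the 7 genes lay above every WT library at 0 h, where 1.81% of all genes did. The count was 6 at 4 h (2.8% of all genes) and 3 at 20 h (2.08% of all genes), the 3 at 20 h being Trdc, Tcrg-C2 and Tcrg-C4. These counts describe the contrast that chose the genes and are given without a test.

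Cd5-/- cells showed the pattern at 4 h, where no library is in doubt. Trdc was at 56.0, 49.6 and 55.9 CPM in Cd5-/- cells against 20.8, 19.5 and 18.7 CPM in WT cells at 4 h, a log2 difference of 1.45. Cd163l1 was at 0.761, 0.939 and 1.28 CPM against 0.0945, 0.233 and 0.0355 CPM, and 5830411N06Rik at 2.56, 2.82 and 3.07 CPM against 0.126, 0.233 and 0.958 CPM. All but Sox13 lay above every WT library, which makes 6 of the 7 genes (2.18% of all genes). At 20 h, 3 of the 7 did (1.99% of all genes), and they were again Trdc, Tcrg-C2 and Tcrg-C4. At 0 h the libraries labelled Cd5-/- had Trdc levels of 62.4, 22.9 and 69.5 CPM, of which the second, the library that went against its label, lay below the WT libraries. With all 3 libraries, 3 of the 7 genes lay above every WT library at 0 h (1.87% of all genes). Without library 2 it was 6 of the 7 (6.43% of all genes), and the log2 difference of Trdc changed from 1.08 to 1.42 when both doubtful libraries were left out.

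**Figure D4:**
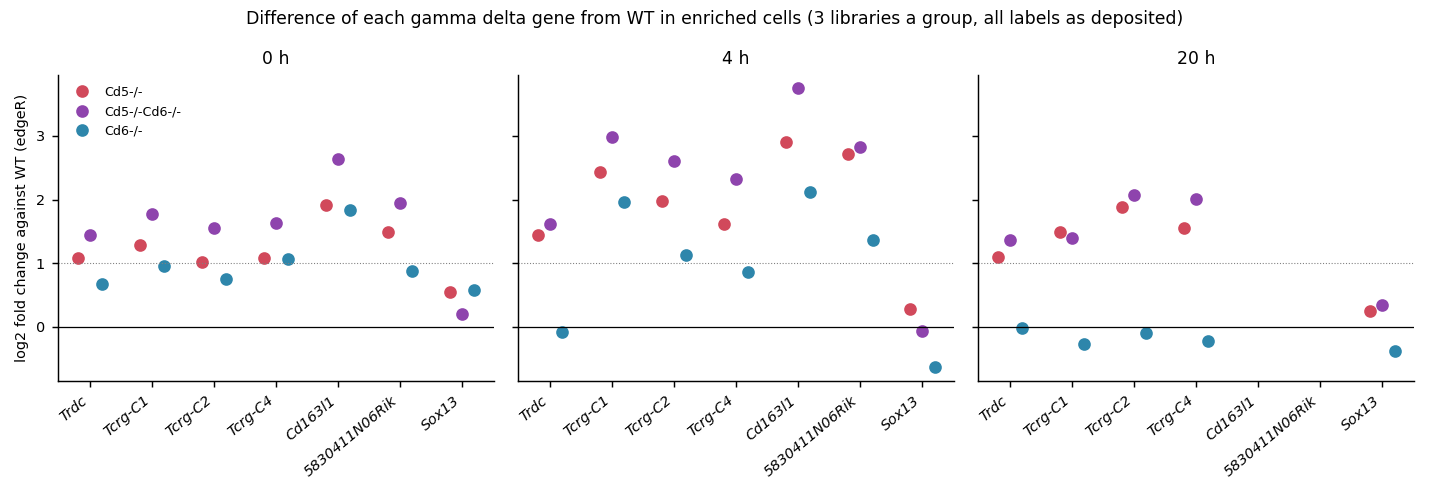
Log2 difference from WT (edgeR fit, drawn without error bars) for the 7 genes in enriched Cd5-/-, Cd5-/-Cd6-/- and Cd6-/- cells at 0, 4 and 20 h. Cd163l1 and 5830411N06Rik are left out at 20 h, when they had 0 to 3 reads per library. In Cd5-/-Cd6-/- cells 6 of the 7 genes lie between 1.45 and 2.64 at 0 h, and Sox13 lies at 0.20; the Cd5-/- and Cd5-/-Cd6-/- differences from WT, and all those at 0 h, are descriptions with no test.

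The difference of Trdc from WT cells was kept to 20 h in both genotypes, at levels lower than at 0 h in each genotype. At 20 h Trdc was at 4.85, 3.69 and 4.00 CPM in WT cells, 8.49, 9.37 and 9.12 CPM in Cd5-/- cells and 9.04, 14.3 and 9.09 CPM in Cd5-/-Cd6-/- cells, log2 differences of 1.10 and 1.37. Across enriched groups the highest mean of each gene but Sox13 was that of Cd5-/-Cd6-/- cells at 0 h. For Trdc the order of means at 4 h was 60.6 ± 12.1 CPM in Cd5-/-Cd6-/-, 53.8 ± 3.70 in Cd5-/-, 19.7 ± 1.07 in WT and 18.7 ± 5.50 CPM in Cd6-/- cells (SD, n = 3). Cd5-/-Cd6-/- and Cd5-/- libraries overlapped, as did WT and Cd6-/- libraries. For Sox13 the highest mean was 0.872 ± 0.109 CPM in Cd5-/-Cd6-/- cells at 20 h, and groups next to each other in its order overlapped.

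The summed B cell markers at 0 and 4 h, and the summed NK cell and CD8 T cell markers at 0 h, overlapped those of WT cells or lay below them. Single markers of other cell types lay above every WT library in some comparisons and below in others. The B cell markers summed to 114 to 622 CPM in WT, 74.7 to 112 CPM in Cd5-/- and 158 to 223 CPM in Cd5-/-Cd6-/- cells at 0 h, and to 70.9 to 224, 44.7 to 55.7 and 94.3 to 150 CPM at 4 h. The 4 h level of each of the 7 B cell markers was below every WT library in the Cd5-/- libraries, as was that of 977 of 32290 genes. The NK cell markers summed to 10.1 to 26.3, 6.19 to 18.1 and 9.09 to 28.4 CPM at 0 h, and the CD8 T cell markers to 29.9 to 85.1, 30.8 to 45.3 and 40.8 to 43.8 CPM. Without library 2 labelled Cd5-/-, the Cd5-/- sums at 0 h were 74.7 to 104 CPM for B cell, 6.19 to 8.91 CPM for NK cell and 30.8 to 45.3 CPM for CD8 T cell markers. Their part in the levels of the γδ genes was not tested. Of 15 segments of the γ and δ loci with a mean of at least 10 counts, 7 lay above every WT library in Cd5-/-Cd6-/- cells at 0 h, 10 at 4 h and 7 at 20 h, and 2, 1 and 1 lay below every WT library. Those below were Trav16d-dv11 at 0 h and Trav14d-3-dv8 at 0, 4 and 20 h. Both can join to α or δ, so αβ T cells can also express them. Segments of this kind were also among those above, such as Trav15-2-dv6-2 and Trav21-dv12 at 0, 4 and 20 h. In Cd5-/- cells 5, 12 and 5 lay above and none below, and at 0 h it was 12 without library 2. In Cd5-/-Cd6-/- cells, 587, 834 and 913 of 32290 genes lay below every WT library at 0, 4 and 20 h. Over all genes the shares above every WT library were those given for the 7 genes. Tcrg-V4, Tcrg-V1, Trgv2 and Trdj1 were among them at 4 h in Cd5-/-Cd6-/- cells, with log2 differences from WT of 2.56, 2.31, 1.77 and 1.45. Of the 16 IL-17-type genes, 2, 1 and 0 lay above every WT library in Cd5-/-Cd6-/- cells at 0, 4 and 20 h, and of the 15 IFN-γ and cytotoxic genes 1, 4 and 0 did. The 4 of the second list at 4 h were Eomes, Il2rb, Klrd1 and Nkg7, which NK cells and activated CD8 T cells also express.

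In Cd6-/- cells the γδ genes did not pass the test against WT cells at 4 h or 20 h. The WT libraries are those of the contrasts that chose the genes, so the 2 sets of differences are not independent. At 4 h none of the 7 was called, by edgeR or by DESeq2, and none of all genes was called higher (0%). At an unadjusted p under 0.05, 5 of the 7 differed, against 2.74% of all genes. Tcrg-C1 was at 0.489, 1.02 and 1.19 CPM in Cd6-/- cells against 0.220, 0.181 and 0.284 CPM in WT cells, and Cd163l1 at 0.206, 0.452 and 1.08 CPM against 0.0945, 0.233 and 0.0355 CPM. The Tcrg-C1 libraries did not overlap and the Cd163l1 libraries did. The log2 difference was 1.96 ± 0.50 for Tcrg-C1 (adjusted p = 0.383) and 2.12 ± 0.65 for Cd163l1 (adjusted p = 0.81). Trdc, at 13.8, 17.6 and 24.6 CPM against 20.8, 19.5 and 18.7 CPM, had a log2 difference of -0.08 ± 0.23. The adjusted p of Tcrg-C1 was 0.00795 without replicate 1 and 0.024 without replicate 3, and 0.0262 when the doubtful 0 h libraries were left out of the fit, so this result rests on which libraries enter. Without replicate 2 Cd163l1 was called (adjusted p = 0.0325), and without replicate 3 5830411N06Rik was (adjusted p = 0.000328). At 20 h none of the 7 differed at an unadjusted p under 0.05 (1.68% of all genes), and no gene of the 7 was called higher (0.0155% of all genes). At 0 h, the libraries labelled Cd6-/- had Trdc levels of 21.5, 59.1 and 36.2 CPM, of which the second, with Cd5 at 172 CPM, went against its label. Their mean was 38.9 CPM, and 28.8 CPM without that library, against 24.5 CPM in WT cells.

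**Figure D5:**
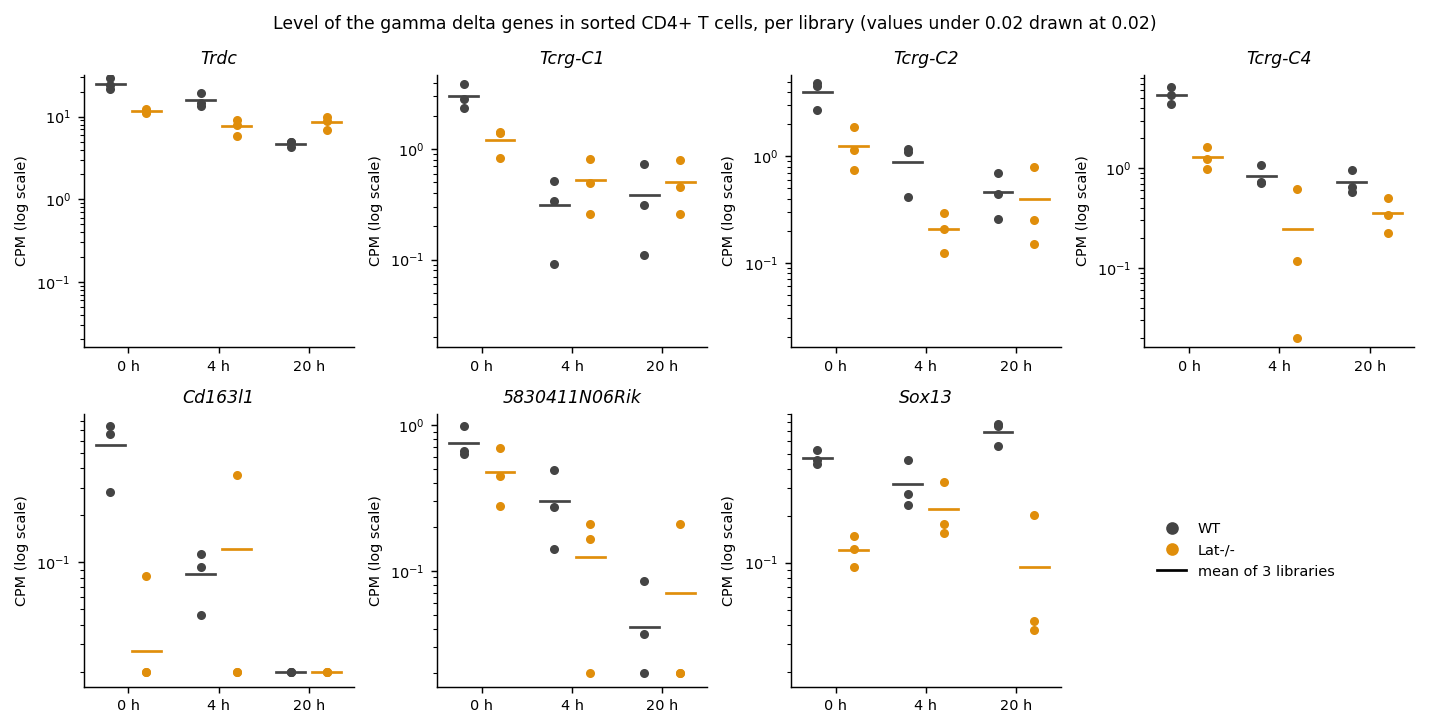
Level of each of the 7 genes (CPM, log axis) in the 18 libraries of sorted WT and Lat-/- cells at 0, 4 and 20 h. Each point is a library, lines are means of 3 libraries, and values under 0.02 CPM are drawn at 0.02. Trdc in Lat-/- cells lies at 11.2 to 12.4 CPM at 0 h, below all WT libraries, and at 6.93 to 9.98 CPM at 20 h, above all of them.

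Loss of LAT was accompanied by lower levels of γδ receptor genes in resting sorted cells. Trdc was at 11.2, 12.4 and 11.5 CPM in Lat-/- cells against 24.0, 29.4 and 21.6 CPM in WT cells, a log2 difference of -1.10 ± 0.21 (adjusted p = 2.26e-05). Tcrg-C4 was at 1.23, 0.979 and 1.63 CPM against 5.45, 6.49 and 4.41 CPM, a log2 difference of -2.08 ± 0.42 (adjusted p = 0.000166). Tcrg-C2 was at 1.14, 0.746 and 1.87 CPM against 4.55, 4.88 and 2.73 CPM, a log2 difference of -1.68 ± 0.44 (adjusted p = 0.0127). For these 3 genes no Lat-/- library reached the lowest WT library. They were the 3 of the 7 called lower, where 0.814% of all genes were. The call of Tcrg-C2 was lost with DESeq2 (adjusted p = 0.0584), without replicate 1 (adjusted p = 0.319), without replicate 2 (adjusted p = 0.306) and with genes of low counts removed (adjusted p = 0.147). Tcrg-C1 was at 0.839, 1.40 and 1.42 CPM against 2.86, 3.93 and 2.38 CPM, and its log2 difference of -1.31 ± 0.47 did not pass (adjusted p = 0.204). Cd163l1 had 2 reads over the Lat-/- libraries against 43 over the WT libraries, 18.2-fold fewer (exact 95% interval 4.75 to 155). Its adjusted p was 0.0513, and 0.0427 with the replicate number as a block (libraries of the same number deviated together in this comparison). Sox13 was at 0.148, 0.0932 and 0.122 CPM against 0.431, 0.455 and 0.525 CPM, which did not overlap, but did not pass (log2 difference -1.92 ± 0.81, adjusted p = 0.507).

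Other lists moved in the resting Lat-/- cells as well. Of the 15 IFN-γ and cytotoxic genes 7 were called lower and none higher, where 0.814% of all genes were called lower. Of the 4 NK cell markers 4 were called lower, and of the 3 regulatory T cell markers 3 were. The summed NK marker level was 0.735 to 6.70 CPM in WT and 0.186 to 1.63 CPM in Lat-/- cells. None of the 8 αβ TCR and CD3 genes and none of the 16 IL-17-type genes was called. The part of NK and regulatory T cells in the levels of the γδ genes was not tested.

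After stimulation, Tcrg-C2 and Tcrg-C4 were called lower in Lat-/- cells and Trdc was not. Trdc in Lat-/- cells was at 11.2, 12.4 and 11.5 CPM at 0 h, 5.88, 8.04 and 9.21 CPM at 4 h, and 6.93, 9.98 and 8.79 CPM at 20 h. The stimulated libraries lay below those at 0 h and overlapped each other, with log2 changes of -0.60 ± 0.21 at 4 h (adjusted p = 0.0321, under 2-fold) and -0.44 ± 0.21 at 20 h (adjusted p = 0.21). Of the 7 genes, 2 were called lower at 4 h (3.62% of all genes), Tcrg-C2 with a log2 change of -2.61 ± 0.57 (adjusted p = 7.18e-05) and Tcrg-C4 with -2.41 ± 0.54 (adjusted p = 0.000111). At 20 h 3 were called lower (2.07% of all genes), Tcrg-C2, Tcrg-C4 and 5830411N06Rik. Tcrg-C4 had a log2 change of -1.87 ± 0.50 (adjusted p = 0.00269). The calls of Tcrg-C2 (log2 change -1.64 ± 0.50, adjusted p = 0.0141) and 5830411N06Rik (adjusted p = 0.03) were lost without replicate 1 (adjusted p = 0.173 and 0.33) and without replicate 2 (adjusted p = 0.0551 and 0.108). Tcrg-C1 was not called at either time, with log2 changes of -1.23 ± 0.52 (adjusted p = 0.102) and -1.28 ± 0.52 (adjusted p = 0.101). Cd163l1 had 2, 7 and 0 reads over the 3 Lat-/- libraries at 0, 4 and 20 h, too few for a fold change.

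Set against WT cells at the same time, Lat-/- cells had less Trdc in CPM at 4 h and more at 20 h. At 4 h 3 of the 7 genes were called lower in Lat-/- cells (6.23% of all genes): Trdc with a log2 difference of -1.05 ± 0.21 (adjusted p = 6.57e-06), Tcrg-C2 with -2.12 ± 0.58 (adjusted p = 0.00156) and Tcrg-C4 with -1.80 ± 0.55 (adjusted p = 0.00604). All 3 calls were lost without replicate 1, when the log2 differences were -0.67, -1.56 and -0.89 (adjusted p = 0.112, 0.119 and 0.494). That of Trdc was also lost with library totals as scaling (log2 difference -0.917, under 2-fold). As a percentage of Trac per length, Trdc at 4 h was at 0.111 to 0.181% in Lat-/- and 0.137 to 0.185% in WT cells, which overlapped. On that scale it was at 0.195 to 0.248% and 0.158 to 0.181% at 20 h, which did not overlap. At 20 h Trdc was at 6.93, 9.98 and 8.79 CPM in Lat-/- and 4.24, 4.94 and 4.95 CPM in WT cells, a log2 difference of 0.87 ± 0.22 (adjusted p = 0.000272, under 2-fold). The Lat-/- libraries lay above all WT libraries. Sox13 was the single gene of the 7 called lower at 20 h (12.3% of all genes), at 0.202, 0.0371 and 0.0421 CPM in Lat-/- against 0.556, 0.774 and 0.751 CPM in WT cells (log2 difference -2.91 ± 0.84, adjusted p = 0.00188).

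The difference between the responses of Lat-/- and WT cells was tested directly. At 20 h the change of Trdc from 0 h was higher in Lat-/- than in WT cells by 1.96 ± 0.30 on the log2 scale (adjusted p = 7.3e-10), the single gene of the 7 called (10.1% of all genes were called higher in this difference). At 4 h Tcrg-C1 was the single one (4.37% of all genes), with a difference of 2.03 ± 0.75 (adjusted p = 0.0453). Tcrg-C1 levels behind this were 2.86, 3.93 and 2.38 CPM falling to 0.514, 0.0916 and 0.339 CPM in WT cells, and 0.839, 1.40 and 1.42 CPM against 0.497, 0.822 and 0.260 CPM in Lat-/- cells. The Tcrg-C1 call was lost with DESeq2 (adjusted p = 0.0528), without replicate 1 (adjusted p = 0.0886) and without replicate 2 (adjusted p = 0.558). For Trdc at 4 h the difference of responses was 0.05 ± 0.29, and at 20 h it was 1.45 ± 0.70 for Tcrg-C2 (adjusted p = 0.126).

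The genes most like the receptor genes were segments of the same loci. Likeness was the Pearson r, over the 36 enriched libraries, between a gene's log2 level and that of the summed level of Trdc, Tcrg-C1, Tcrg-C2 and Tcrg-C4, each taken as the deviation from the mean of its time. Among 12312 genes compared, r was 0.90 for Trdj1 and Trgv2, 0.89 for Tcrg-V4, 0.88 for Trav21-dv12, a variable segment that can join to α or δ, and 0.81 for Trdv1. The next were the α variable segments Trav17 (0.75) and Trav14-3 (0.72) and Pfkp (0.71), which encodes a glycolytic enzyme. In the 18 sorted libraries r was 0.68 for Trdj1, 0.71 for Trdv1, 0.59 for Trgv2, 0.39 for Tcrg-V4 and 0.0015 for Pfkp. Of the 7 genes, Cd163l1, 5830411N06Rik and Sox13 do not enter the sum, and their r in enriched cells was 0.74, 0.78 and 0.44. Taken as deviations from the mean of each genotype and time, it was 0.67, 0.58 and 0.42. In sorted cells it was 0.68, 0.39 and 0.056. The r from time means includes the genotype difference that chose these genes, so it is no independent support. The libraries share their genotype, and these values are descriptions with no test.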

How the data were processed

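Stranded mRNA libraries were sequenced as single 50-base reads. Base calls were converted with bcl2fastq 2.17.1.14, and the authors mapped reads to GRCm38 (mm10) with STAR and deposited raw counts per Ensembl gene from featureCounts, as 1 table per set. The gene annotation and the strand and multimapper settings are not given in the sources used here. Of 55385 gene IDs, 55144 were named through GENCODE vM21. Every column of the tables belonged to a labelled sample. The authors' own tests used DESeq2.

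Here, each table was fitted as a whole with edgeR 4.0.16 (R 4.3.3), with TMM scaling and genes with at least 1 read (32290 and 27780). The quasi-likelihood test was used on the deposited counts, with groups from the labels and no covariate. A call needed over 2-fold and a Benjamini-Hochberg adjusted p under 0.05. DESeq2 1.42.0, other scalings, a filter on low counts, single replicates left out and a replicate block were alternatives. The scripts were tested on simulated data. Library totals were 17784644 to 45222554 counts.

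The 7 genes and all gene lists were chosen with earlier results of these data known. Also named were Cd5, Cd6 and Lat, locus segments with a mean of at least 10 counts, up to 4 genes per list, and the 8 genes outside the 7 with the highest likeness among those with a mean of at least 20 counts. Replicate numbers were shared between groups, with no stated meaning. Same-numbered libraries deviated together (every r over 0.1) in 5 of 17 comparisons, with r from -0.217 to 0.527 over all pairs; the pairing comes from these correlations and not from the labels. For correlations, CPM were put on a log2 scale, adding a prior count of 2. Values of 1 gene of these lists are not reported here.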

Additional observations from a re-analysis of the deposited data

Results flagged for a closer look

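Both results listed here are differences between genotypes in the response to stimulation, each found by a test of the difference itself in sorted cells. The change of Trdc from 0 h to 20 h was higher in Lat-/- than in WT cells by 1.96 on the log2 scale (edgeR, adjusted p = 7.3e-10), with a log2 change of -2.41 in WT and -0.44 in Lat-/- cells. The change of Tcrg-C1 from 0 h to 4 h was higher in Lat-/- than in WT cells by 2.03 on the log2 scale (edgeR, adjusted p = 0.0453), with a log2 change of -3.25 in WT and -1.23 in Lat-/- cells, on levels at or under 0.822 CPM in all 6 libraries at 4 h. The difference of Tcrg-C1 was 1.10 (adjusted p = 0.558) without replicate 2, and its call was also lost without replicate 1 (adjusted p = 0.0886), with DESeq2 (adjusted p = 0.0528) and with genes of low counts removed (adjusted p = 0.0751).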

How the results depend on the processing

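Of 1111 values of the 7 genes in the tested comparisons under alternatives, 1067 kept their side of the threshold, 21 lost a call and 23 gained a call. Among values called in the reported fit or in the alternative, 0 changed direction. Changes of direction among values called in neither were not counted. The number of the 7 genes called moved as follows, with the cause not tested. For Cd5-/-Cd6-/- cells at 4 h against 0 h it was 5 with the replicate block and 3 without. For Cd6-/- against WT cells at 4 h it was 0, but 1 to 2 on leaving out a replicate and 1 without the doubtful 0 h libraries. In sorted cells, it was 1 to 3 for Lat-/- at 20 h and 0 to 3 for Lat-/- against WT at 4 h on leaving out a replicate, 5 in place of 3 for Lat-/- against WT at 0 h with those groups fitted alone, and 2 in place of 1 at 20 h with the adjusted p alone. For the difference of responses at 4 h it was 1, but 0 with DESeq2 or the low-count filter, 2 with library totals as scaling or the groups fitted alone, and 0 to 1 on leaving out a replicate. At 20 h it was 1, but 2 with the replicate block or the groups alone and 1 to 2 on leaving out a replicate. The block changed no other count of the 7 by over 1.5 times. For Cd6-/- at 0 h, 2 of the 7 were over 2-fold from WT, and 1 without the doubtful libraries, an alternative chosen after seeing the data. Within-group deviations kept 4 of the 8 most alike genes. Scaling by library totals moved the share of calls that were higher from 42.6 to 30.6% (enriched WT, 4 h), 44 to 31% (Cd5-/-Cd6-/-, 4 h), 46.4 to 32.9% (sorted WT, 4 h) and 50.1 to 64.2% (difference of responses, 4 h). Over all genes, the count of calls ranged over the alternatives from 0 to 85 (1 as reported) for Cd6-/- against WT at 4 h, 0 to 48 (6) at 20 h, 100 to 443 (267) for Lat-/- against WT at 0 h, 1340 to 4285 (1861) for Lat-/- at 4 h and 829 to 2970 (1170) at 20 h. Depth limits Cd163l1, 5830411N06Rik and Sox13 most.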
